A study of Mus musculus with 8 samples.

Results

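The insulin-like growth factor family measured here comprised 10 genes: the ligands Igf1 and Igf2, the receptors Igf1r and Igf2r, and the binding proteins Igfbp2, Igfbp3, Igfbp4, Igfbp5, Igfbp6 and Igfbp7. Members were all probe sets whose single gene symbol in the array annotation was one of these names, which gave 28 of 34945 probe sets with 1 gene, or 10 of 18193 genes. The tissue was the choroid plexus of the fourth ventricle, taken from mouse embryos at embryonic day 13. In the comparison, 4 arrays were labelled Otx2 k.o., from an Otx2-deficient strain, and 4 were labelled wildtype, from the same litters. All embryos had a mixed strain background, were untreated and were of undetermined sex. Each array was 1 biological replicate. The number of embryos behind each array, and the cells and means by which Otx2 was removed, are not stated in the labels used here.

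IGF1 and IGF2 are secreted peptides that promote growth and survival by activating the receptor tyrosine kinase IGF1R. IGF2R, which also carries mannose 6-phosphate tagged enzymes to lysosomes, takes IGF2 up for breakdown. Binding proteins hold the ligands in body fluids and matrix, and can either shield them from receptors or release them after cleavage. The choroid plexus is known as a source of IGF2 in the cerebrospinal fluid, where it acts on neural progenitors.

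Each value is the level of a probe set on a log2 scale. A gene is represented by its brightest probe set, and fold changes are knockout-labelled minus wildtype. Every adjusted p comes from limma, with Benjamini-Hochberg adjustment over 45037 probe sets, and a call means an adjusted p under 0.05. The only Otx2 probe set did not fall but read 12.44 ± 0.04 log2 units (SD, n = 4) in the knockout-labelled arrays against 11.97 ± 0.09 (SD, n = 4) in wildtype, an adjusted p of 0.00134 by limma. No label places its probes inside or outside the deletion. Outside it they would check nothing. Inside it a fall would be looked for, and none was seen. Which of these holds is not known here, so every direction below rests on the labels and the arrays are called knockout-labelled. Array medians lay between 5.85 and 5.90 log2 units. In bulk tissue, fewer cells of a type and less RNA per cell cannot be told apart.

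Of the 10 members, Igfbp4 and Igfbp5 rose in the knockout-labelled arrays, 0 fell and 8 did not pass. The share called over all genes was 16.5%, with 6.31% called higher and 10.2% called lower, so 2 of 10 is near the background of this comparison. At the level of probe sets 5 of 28 were called, all higher, against 12.7% of all probe sets called, 5.27% higher and 7.46% lower. The median log2 fold change of the members was 0.08, against 0.00 over all genes, and the median size of the change was 0.13 against 0.12. The ligand Igf2, both receptors and the binding protein Igfbp2 each differed by at most 0.11 log2 units between the group means. Igfbp6 was lower by 0.40 and narrowly missed the threshold (limma adjusted p = 0.0510). With the replicate number as a block it was called lower (limma adjusted p = 0.0291). Among the fits without 1 array it was called only without wildtype replicate 1.

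The promoters of both called binding proteins are shown because these genes were called in the same direction. Each line gives the 250 bases before the start site from RefSeq, build GRCm38.p6, read 5′ to 3′ on the strand of the gene. The Igfbp4 window is chr11:99040994-99041243 on the plus strand, and the Igfbp5 window is chr1:72874866-72875115 on the minus strand. Capitals mark TATAAA in Igfbp4 and TATTTAA in Igfbp5.
Igfbp4: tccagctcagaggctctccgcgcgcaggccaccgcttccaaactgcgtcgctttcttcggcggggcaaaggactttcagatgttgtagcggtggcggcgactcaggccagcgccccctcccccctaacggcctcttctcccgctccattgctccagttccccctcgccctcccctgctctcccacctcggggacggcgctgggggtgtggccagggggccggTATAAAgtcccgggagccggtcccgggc
Igfbp5: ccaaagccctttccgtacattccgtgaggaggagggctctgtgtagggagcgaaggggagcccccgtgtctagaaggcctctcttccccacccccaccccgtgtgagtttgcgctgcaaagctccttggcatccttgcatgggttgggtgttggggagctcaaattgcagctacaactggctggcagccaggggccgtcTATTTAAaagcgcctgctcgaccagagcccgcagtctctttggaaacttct
In Igfbp4 the TATAAA begins 28 bases before the start site. In Igfbp5 the TATTTAA begins 51 bases before it. On either strand, TATAAA was in 12.4% and TATTTAA in 4.18% of 32851 mouse promoter windows of this length. The letters TAATCC, the core recognised by Otx-type homeodomains, were in 6.25% of all windows and in 0 of the 14 windows of the 10 members. The letters GGGCGG, a GC box, were in 32.7% of all windows and in windows of Igf1r, Igf2, Igf2r, Igfbp2 and Igfbp7. TATAAA was also in the window of Igfbp6, but on the opposite strand and 148 bases before the start site. Overlapping matches were each kept. The motifs were chosen with the results known, and a match or its absence describes only the letters in these windows.

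The ligand Igf2, which is imprinted and expressed from the paternal copy in many but not all embryonic tissues, was not called. The arrays do not tell the parental copies apart, so its imprinting in the choroid plexus was not measured. Its brightest probe set read 13.35, 13.37, 13.33 and 13.41 log2 units on wildtype arrays 1 to 4 and 13.45, 13.43, 13.56 and 13.46 on knockout-labelled arrays 1 to 4. The lowest knockout-labelled array was still above the highest wildtype array, by a small margin. The difference was 0.11 log2 units with a 95% interval from -0.03 to 0.25 (limma adjusted p = 0.312). These levels lie above 11.98, which 1% of probe set means exceed, and compression of differences at such levels was not tested. A second Igf2 probe set gave -0.06 (95% interval -0.26 to 0.14), with overlapping groups, so the direction differs between the probe sets.

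Igf1, the ligand that signals mainly through IGF1R and is made by mesenchyme and macrophages among other cells, had 4 probe sets, none of which was called. Its brightest probe set read 9.26, 9.37, 9.44 and 9.46 on the wildtype arrays and 9.54, 9.26, 9.80 and 9.63 on the knockout-labelled arrays. The groups overlapped because knockout-labelled replicate 2 was as low as the lowest wildtype array, while replicate 3 was the highest of all. The group means differed by 0.17 (95% interval -0.07 to 0.42, limma adjusted p = 0.372), and the other 3 probe sets gave 0.16, 0.19 and 0.25. Knockout-labelled replicate 3 was the highest array on each of the 4 probe sets, at 9.80, 9.80, 8.20 and 7.50. Without knockout-labelled replicate 2 the change was 0.27 (limma adjusted p = 0.0609), and without replicate 3 it was 0.09 (limma adjusted p = 0.657).

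The mean level of 15 macrophage markers on knockout-labelled arrays 1 to 4 was 8.87, 8.83, 9.30 and 9.21 log2 units. That of 20 stroma markers was 10.70, 10.32, 10.76 and 10.58. In both lists replicate 2 was lowest and replicate 3 highest, as for the brightest Igf1 probe set within that group. Pericyte and mural markers also had replicate 2 lowest and replicate 3 highest, at 8.43, 8.22, 8.49 and 8.26. Replicate 3 was the highest for epithelium markers too, at 9.81. On the third brightest Igf1 probe set replicate 1 was the lowest of the group, at 7.73. On wildtype arrays 1 to 4 the macrophage means were 8.46, 8.40, 8.28 and 8.50 and the stroma means 9.81, 9.96, 9.93 and 9.89, an order that differs from that of Igf1 there. The part of these cell types in the Igf1 values was not tested.

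Neither receptor was called. Igf1r, the signalling receptor, read 10.36, 10.36, 10.17 and 10.19 log2 units on the wildtype arrays and 10.38, 10.40, 10.36 and 10.40 on the knockout-labelled arrays. The knockout-labelled arrays lay close together, near the upper pair of wildtype arrays. The log2 fold change was 0.11 (95% interval -0.04 to 0.27, limma adjusted p = 0.351). The other 4 probe sets of Igf1r gave 0.10, 0.18, 0.08 and 0.01, and none was called. The interval of the third brightest, from 0.01 to 0.36, excluded 0 before adjustment (limma adjusted p = 0.168).

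Igf2r, the clearing receptor, is imprinted and expressed mainly from the maternal copy in mouse. It read 10.45, 10.34, 10.19 and 10.31 on the wildtype arrays and 10.33, 10.38, 10.45 and 10.37 on the knockout-labelled arrays, with overlapping groups. The difference was 0.06 (95% interval -0.10 to 0.22, limma adjusted p = 0.685), and its second probe set gave 0.09 (95% interval -0.06 to 0.25).

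**Figure D1:**
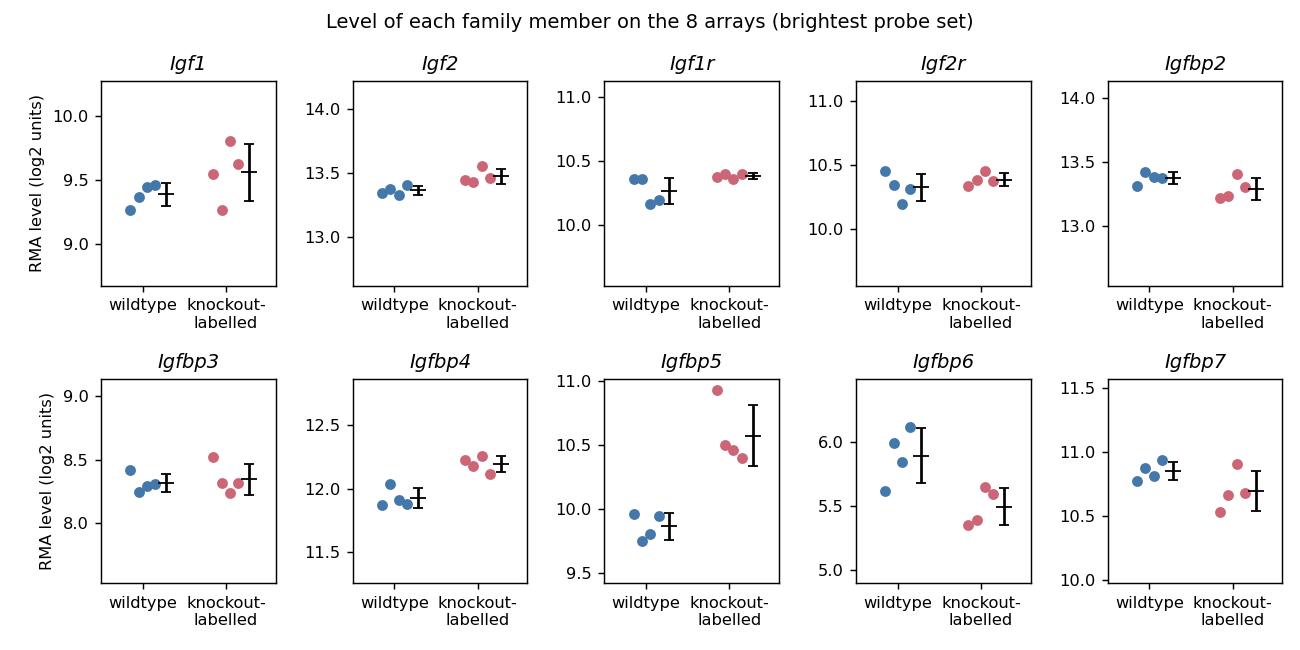
RMA level in log2 units on the y axis of each panel, at the brightest probe set of each of the 10 members, for 4 wildtype arrays (blue) and 4 knockout-labelled arrays (red), in replicate order from left to right; black bars are means ± SD, and each panel spans the same range of 1.6 log2 units around its own mean. The groups stand clearly apart in Igfbp5, by less in Igfbp4 and Igf2, and overlap in the other 7 members.

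The binding proteins carried both called changes. Igfbp5, a binding protein that also attaches to extracellular matrix, showed the largest difference of the family. It read 9.96, 9.75, 9.80 and 9.94 log2 units on the wildtype arrays and 10.93, 10.50, 10.46 and 10.40 on the knockout-labelled arrays. Every knockout-labelled array lay above every wildtype array, and replicate 1 was the highest. The means were 9.86 ± 0.10 and 10.57 ± 0.24 (SD, n = 4 each), a rise of 1.63-fold or 0.71 log2 units (SE 0.12, 95% interval 0.45 to 0.97, limma adjusted p = 0.00312).

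The call of Igfbp5 held in all 8 fits that left out 1 array, where the log2 fold change lay between 0.59 and 0.77. It was lost when each probe set was tested with its own variance only (adjusted p = 0.0671). Its second, dimmer probe set had a mean of 7.52 ± 0.10 in wildtype and 7.69 ± 0.19 in knockout-labelled arrays (SD, n = 4 each). There the difference was 0.17 (95% interval -0.05 to 0.40, limma adjusted p = 0.320). The rise of Igfbp5 was called on 1 of its 2 probe sets.

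Igfbp4, which inhibits IGF action until it is cleaved by the protease PAPP-A, had 6 probe sets, of which 4 were called, all higher. Its brightest probe set read 11.87, 12.04, 11.91 and 11.88 on the wildtype arrays and 12.22, 12.17, 12.25 and 12.11 on the knockout-labelled arrays. The groups did not overlap, and the gap was small because wildtype replicate 2 was the highest of its group. The rise was 1.20-fold or 0.27 log2 units (SE 0.07, 95% interval 0.11 to 0.42, limma adjusted p = 0.0291). The other called probe sets rose by 0.33, 0.35 and 0.36. The mean of the brightest over all arrays, 12.06, lies above 11.98, which 1% of probe set means exceed. Compression of differences at such levels was not tested.

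This call on the brightest probe set of Igfbp4 was lost without knockout-labelled replicate 1 (limma adjusted p = 0.0779) or 3 (0.0778) and without wildtype replicate 1 (0.0691), 3 (0.0746) or 4 (0.0844), and with arrays centred on their medians (0.0511). The log2 fold change stayed between 0.24 and 0.30 in the 8 fits without 1 array. The probe sets with rises of 0.35 and 0.36 were called in every fit that left out 1 array, and that with a rise of 0.33 in 3 of 8. Of the remaining pair, 1 gave 0.23 (limma adjusted p = 0.0881), and the dimmest gave 0.01 (95% interval -0.14 to 0.17). The probe sets of a gene share their RNA and are not replicates.

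**Figure D2:**
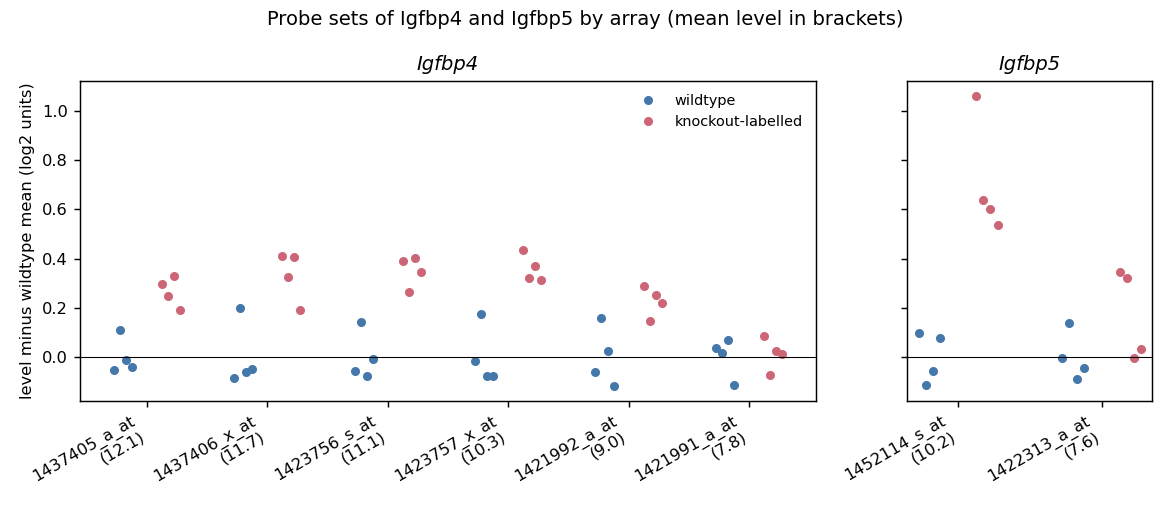
Level minus the wildtype mean, in log2 units, for each probe set of Igfbp4 (left, 6 probe sets) and Igfbp5 (right, 2 probe sets) on 4 wildtype (blue) and 4 knockout-labelled arrays (red), with the mean level of the probe set in brackets. The upper 5 probe sets of Igfbp4 shift by 0.23 to 0.36 and the dimmest by 0.01; only the brighter probe set of Igfbp5 separates the groups.

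Igfbp6, which prefers IGF2 over IGF1 as its ligand, was the member nearest to a fall. It read 5.62, 5.99, 5.85 and 6.12 log2 units on the wildtype arrays and 5.35, 5.39, 5.65 and 5.59 on the knockout-labelled arrays. Wildtype replicate 1 lay within the range of the knockout-labelled arrays and the other wildtype arrays lay above it. The difference was -0.40 (95% interval -0.66 to -0.14, limma adjusted p = 0.0510). The levels lie near the median of all probe sets, 5.88, and no detection call is at hand to set such a level apart from array background. With the replicate number as a block the adjusted p was 0.0291, and it was 0.0379 when only the brightest probe set of each gene entered the limma fit. Without wildtype replicate 1 the change was -0.49 (limma adjusted p = 0.0173).

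Igfbp2, a binding protein made in large amounts by embryonic epithelia and by the choroid plexus, had 1 probe set, which read 13.31, 13.42, 13.39 and 13.38 on the wildtype arrays and 13.22, 13.24, 13.41 and 13.30 on the knockout-labelled arrays. The groups overlapped, and knockout-labelled replicate 3 lay within the wildtype range. The group means differed by -0.08 (95% interval -0.23 to 0.07, limma adjusted p = 0.508). Igfbp2 lay above 11.98, the level exceeded by 1% of probe set means, on every array. Whether the arrays compress differences at such levels was not tested. Markers of the choroid plexus epithelium fell on the same arrays by a median of 1.06 log2 units.

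Igfbp3, the main carrier of IGFs in adult serum, gave 0.03 (95% interval -0.14 to 0.21, limma adjusted p = 0.861), and its second probe set by 0.17 (95% interval -0.02 to 0.36). The first read 8.42, 8.25, 8.29 and 8.31 on the wildtype arrays and 8.52, 8.32, 8.24 and 8.31 on the knockout-labelled arrays. The groups overlapped throughout, and without knockout-labelled replicate 1 the value was -0.03.

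Igfbp7, a low-affinity relative found around blood vessels, read 10.77, 10.88, 10.81 and 10.94 on the wildtype arrays and 10.53, 10.67, 10.91 and 10.68 on the knockout-labelled arrays. Of the latter, 3 lay below the wildtype range and replicate 3 lay within it. The log2 fold change was -0.15 (95% interval -0.35 to 0.04, limma adjusted p = 0.316), and -0.22 without knockout-labelled replicate 3 (limma adjusted p = 0.113). Its dimmer probe sets gave 0.01 and -0.32, the latter with group means of 5.39 and 5.06 and a limma adjusted p of 0.158. On that probe set knockout-labelled replicate 3 was at 5.50 and the other 3 between 4.84 and 4.96. Without replicate 3 it was called lower, at -0.47 (limma adjusted p = 0.00753). No other fit without 1 array called it (limma adjusted p of 0.163 to 0.315). Its levels lie below the median of all probe sets, 5.88, and no detection call sets them apart from array background. Of 16 endothelium markers measured on the same arrays, 0 rose and 2 fell, with a median of -0.10. That is 12.5% called, against 16.5% of all genes.

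**Figure D3:**
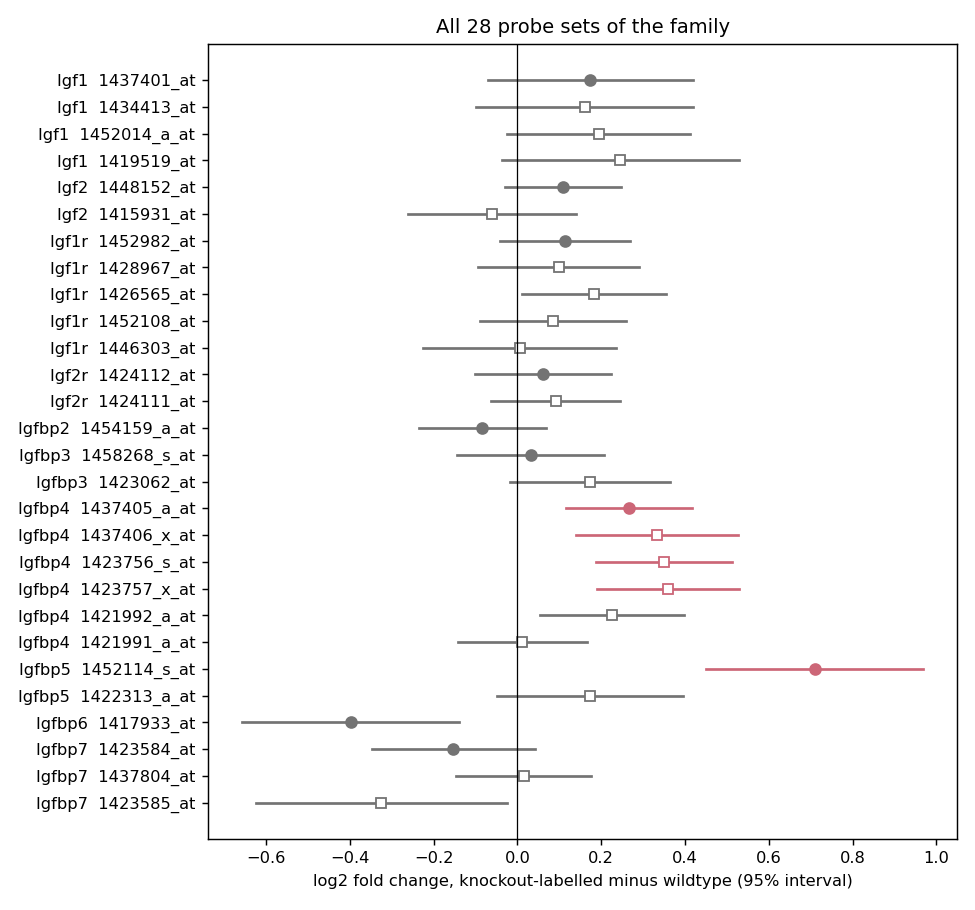
Log2 fold change, knockout-labelled minus wildtype, with its 95% interval from limma on the x axis, for all 28 probe sets of the family; filled circles mark the brightest probe set of a gene and open squares the others, and red marks an adjusted p under 0.05. The 5 called probe sets are 4 of Igfbp4 and 1 of Igfbp5, all to the right of 0.

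The groups did not overlap in 3 of the 10 members, Igf2, Igfbp4 and Igfbp5, and in each the knockout-labelled arrays were higher. Over all genes the groups did not overlap in 24.3%, with the knockout-labelled arrays higher in 9.98% and lower in 14.4%. Of the 28 probe sets 5 did not overlap, all higher, against 18.8% of all probe sets, 8.04% higher and 10.8% lower. Among knockout-labelled arrays, replicate 3 was the highest for 7 of the 10 members, and for 14 of the 28 probe sets. Igfbp5, Igf1r and Igfbp3 were the exceptions.

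Markers of several cell types differed between the same groups as Igfbp4 and Igfbp5. The share called was 80% of stroma, 66.7% of macrophage and 77.8% of epithelium markers, against 16.5% of all genes. Of 20 stroma and mesenchyme markers, 16 rose and 0 fell, with array means of 9.81 to 9.96 log2 units in wildtype and 10.32 to 10.76 in knockout-labelled arrays. Of 15 macrophage markers 10 rose and 0 fell, with array means of 8.28 to 8.50 and 8.83 to 9.30. Of 18 choroid plexus epithelium markers 0 rose and 14 fell, with array means of 10.54 to 10.73 and 9.47 to 9.81. These means lay above the median of all probe sets, 5.88, in both groups. Of the 4 epithelium markers that were not called, Ttr, the transthyretin gene, named after its value was seen, read 14.21 in wildtype and 14.17 in knockout-labelled arrays, the smallest change of its list. Ttr too lies above 11.98, which 1% of probe set means exceed, and compression of differences there was not tested. Array means did not overlap between the groups in any of these 3 lists. The genes with the smallest p were Fbln1 (0.82) and Lum (0.53) in stroma, Lyve1 (1.75) and F13a1 (1.02) in macrophages, and Col8a1 (-2.11) and Slc4a10 (-1.63) in epithelium, as log2 fold changes. The part of the stroma, macrophages or epithelium in the changes of Igfbp4, Igfbp5 and Igfbp6 was not tested.

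Other cell types gave smaller shifts. The share called was 50% of mural, 23.1% of neural progenitor and 11.1% of erythroid markers, against 16.5% of all genes. Of 12 pericyte and mural markers 4 rose and 2 fell, with array means of 8.12 to 8.18 and 8.22 to 8.49. Of 9 erythroid markers 1 fell and 0 rose. Of 13 neuron markers 0 passed, and their array means spread from 7.43 to 8.99 within the wildtype group and from 7.74 to 9.26 within the knockout-labelled group. Of 13 neural progenitor markers 3 rose and 0 fell, led by Nes (0.65) and Vim (0.38). The Vim call was lost without knockout-labelled replicate 1 and wildtype replicates 3 and 4 in turn (0.0558 to 0.0582). In the other lists the smallest p belonged to Tagln (1.17) and Abcc9 (-0.45) among mural, Plvap (-0.51) and Emcn (-0.39) among endothelial and Alas2 (-0.48) among erythroid markers.

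**Figure D4:**
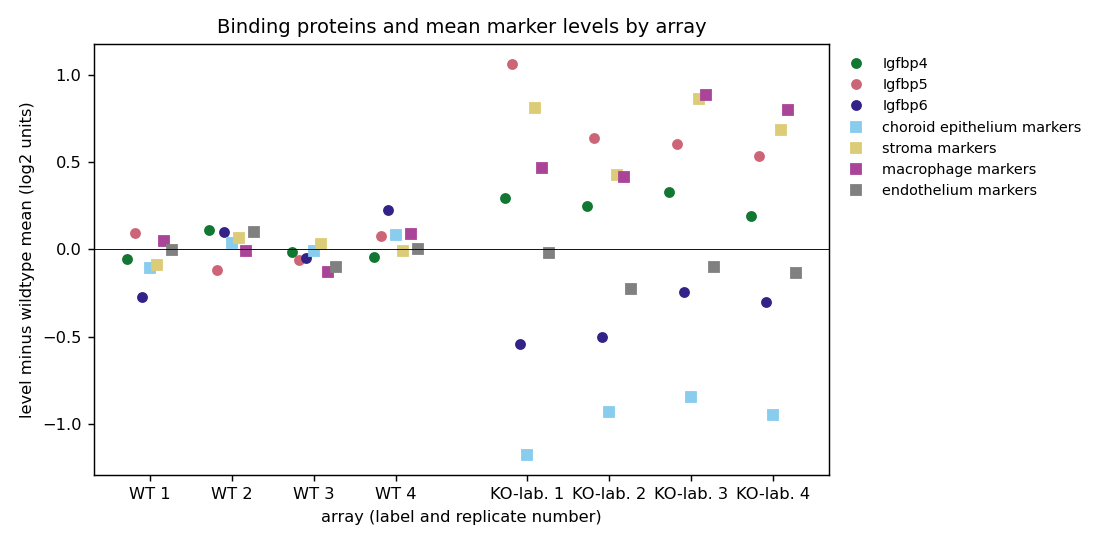
Level minus the wildtype mean, in log2 units, on each array, for Igfbp4, Igfbp5 and Igfbp6 (circles, brightest probe set) and for the mean of 4 marker lists (squares). On the knockout-labelled (KO-lab.) arrays Igfbp4, Igfbp5, stroma and macrophage markers lie above the wildtype (WT) mean, and Igfbp6 and epithelium markers below it.

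The genes most like Igfbp5 across the 8 arrays were Farp1, Tmem119, Snai2, Fbn2 and Col5a2. Likeness was the Euclidean distance between values set relative to the wildtype mean, over 9088 genes at or above the median level, and these distances ran from 0.27 to 0.34 log2 units. Their log2 fold changes ran from 0.64 to 0.76, which are near that of Igfbp5 because of how these genes were picked. Snai2 is a transcription factor of mesenchyme, Fbn2 encodes fibrillin-2 and Col5a2 a fibrillar collagen chain. No function is given here for Farp1 and Tmem119, which lay nearer to Igfbp5. The part of any cell type in this likeness was not tested. Those most like Igf2 were Sparc, Slc25a4, Fzd6, Slc25a20 and Map2k3, at distances of 0.04 to 0.09. A pattern as flat as that of Igf2 is common, since 5090 genes lay within 0.5 of it, while 38 lay within 0.5 of Igfbp5.

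Around the family, 122 other genes of its pathway and of imprinted loci were read in the same fit. Of these 18 rose and 15 fell, with a median of 0.05 log2 units. The share called was 27.0%, against 16.5% of all genes, 6.31% higher and 10.2% lower. By list it ran from 17.6% for receptors and adaptors to 38.5% for proteases and their regulators. The lists were chosen with earlier results of these data known.

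Among 17 receptors and adaptors 2 rose and 1 fell. The docking proteins Gab1 and Shc1, which link activated receptor kinases to downstream signalling, rose by 0.35 (limma adjusted p = 0.00611) and 0.30 (limma adjusted p = 0.00784). A second Gab1 probe set rose by 0.26, and dim ones of Gab1 and Shc1 gave -0.09 and 0.07. Grb14, an adaptor that inhibits the insulin receptor, fell by 0.46 (limma adjusted p = 0.0329), a call lost without knockout-labelled replicate 1 and wildtype replicates 2, 3 and 4 in turn (0.0598 to 0.0948). Its dim second probe set gave -0.05. The insulin receptor Insr gave 0.01 and the substrates Irs1 and Irs2 by 0.09 and -0.13, none of them called. These 3 were named after their values were seen.

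Among 13 proteases that cleave binding proteins, and their regulators, 3 rose and 2 fell, with a median of 0.17. Plat, tissue plasminogen activator, rose from 8.73 ± 0.04 to 9.65 ± 0.31 (SD, n = 4 each), by 1.89-fold (limma adjusted p = 0.00148). The metalloproteases Adam12 and Mmp14 rose by 0.55 and 0.36. Adamts1, a matrix metalloprotease, fell by 0.77 (limma adjusted p = 0.000198) and Ctsd, the lysosomal protease cathepsin D, fell by 0.53. A dim second probe set of Plat gave 0.19 (limma adjusted p = 0.102). Pappa, the gene of the IGFBP4 protease PAPP-A, and its relative Pappa2 gave 0.21 and 0.30 with limma adjusted p of 0.332 and 0.226. Both were named after their values were seen. The Pappa probe set was dim, at a mean level of 5.09.

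Among 12 relatives of the binding proteins 1 rose and 2 fell. Igfbpl1, a secreted protein with an IGF binding domain that is expressed in neural progenitors and young neurons, went from 9.89 ± 0.28 to 8.96 ± 0.46 (SD, n = 4 each). This fall of 1.90-fold (limma adjusted p = 0.0201) was accompanied by one of 0.70 log2 units on its second probe set. The call was lost without knockout-labelled replicate 1 or replicate 4, and without wildtype replicate 2 (0.0517 to 0.0574). Esm1, a proteoglycan of endothelial tip cells, fell by 0.76, and Ccn4, a matricellular target of Wnt signalling, rose by 0.51.

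Among 12 regulators of Igf2 RNA or transcription 2 rose and 2 fell. Hmga2, a chromatin protein that raises Igf2bp2 expression, rose by 0.69 (limma adjusted p = 0.0135), and by 0.69 and 0.68 on further probe sets, while a dim one gave 0.19. E2f3, a cell cycle factor that activates Igf2, rose by 0.38 (limma adjusted p = 0.0399), a call held only without knockout-labelled replicate 2 or wildtype replicate 1 among the fits without 1 array (0.0618 to 0.113 in the others). Lin28a, which binds Igf2 RNA in muscle cells, fell by 0.46 at a dim level, a call lost with the replicate block (0.0602) and without knockout-labelled replicates 1 and 4 and wildtype replicates 1, 3 and 4 in turn (0.0694 to 0.0961). Plagl2, a zinc finger relative of an Igf2 activator, fell by 0.38, a call lost in every fit without 1 array but that without knockout-labelled replicate 4 (0.0517 to 0.133). Second probe sets of E2f3 and Lin28a gave 0.03 and 0.01 and were not called. Of the other probe sets of Plagl2, 1 fell by 0.29 and 2 dim ones gave 0.10 and 0.36.

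In the signalling chain from PI3 kinase to Akt, FoxO and mTOR, 2 of 22 genes rose and 3 fell. The PI3 kinase subunits Pik3cb, catalytic, and Pik3r1, regulatory, fell by 0.70 (limma adjusted p = 0.000275) and 0.34 (limma adjusted p = 0.00432). The other 3 probe sets of Pik3r1 ranged from -0.34 to -0.06 and were not called. Foxo3, a transcription factor that Akt keeps out of the nucleus, rose by 0.59 (limma adjusted p = 0.00349) and by 0.42 on a second probe set. Its relative Foxo1 rose by 0.40 (limma adjusted p = 0.0365) and Pdpk1, the kinase that activates Akt, fell by 0.23 (limma adjusted p = 0.0361). The other 3 Foxo1 probe sets gave 0.40 (limma adjusted p = 0.0648), 0.22 and 0.00, and a second one of Pdpk1 gave -0.15, none of them called. Among the fits without 1 array the Foxo1 call held only without knockout-labelled replicate 2 or 3 (0.0547 to 0.0927 in the others). That of Pdpk1 held only without knockout-labelled replicate 2 (0.0554 or more in the others), and it was lost with the replicate block (0.0616).

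Among 13 genes of the insulin, relaxin and growth hormone axis 1 rose and 2 fell. Ins2, an insulin gene, went from 8.92 ± 0.19 in wildtype to 8.19 ± 0.05 log2 units in knockout-labelled arrays (SD, n = 4 each), a fall of 1.66-fold (limma adjusted p = 0.000789). All knockout-labelled arrays lay below all wildtype arrays on this probe set. Ghr, the growth hormone receptor, rose by 0.39 (limma adjusted p = 0.00785), with 0.38 and -0.03 on further probe sets that were not called. Rxfp2, a receptor of the relaxin family, fell by 0.58 at a dim level, a call lost without knockout-labelled replicates 3 and 4 and wildtype replicates 2 and 3 in turn (0.0938 to 0.107), and its second probe set gave -0.16.

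Among 35 genes listed as imprinted in mouse, other than Igf2 and Igf2r, 7 rose and 3 fell, with a median of 0.12. The list does not say in which tissues a gene is imprinted, and imprinting was not measured here. Dcn, the matrix proteoglycan decorin, which is also in the stroma list, rose from 10.09 ± 0.21 to 11.38 ± 0.41 (SD, n = 4 each), by 2.44-fold (limma adjusted p = 0.00156). Meg3, a long noncoding RNA expressed from the maternal copy, rose by 0.83 (limma adjusted p = 0.000445), and 8 of its other 10 probe sets rose. Cdkn1c, an inhibitor of the cell cycle, rose by 0.65 (limma adjusted p = 0.00138). Asb4 fell by 0.44 on its brightest and 0.47 on its second probe set. Copg2 and Peg10 fell by 0.23 and 0.29. The Copg2 call was lost in all 8 fits without 1 array (0.0527 to 0.105) and with the replicate block (0.0745), and the Peg10 call in all but that without wildtype replicate 1 (0.0635 to 0.110). The imprinted growth genes Mest, Peg3, Plagl1, Dlk1 and Grb10, named after their values were seen, gave 0.01, -0.02, -0.13, 0.19 and 0.23 and were not called.

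**Figure D5:**
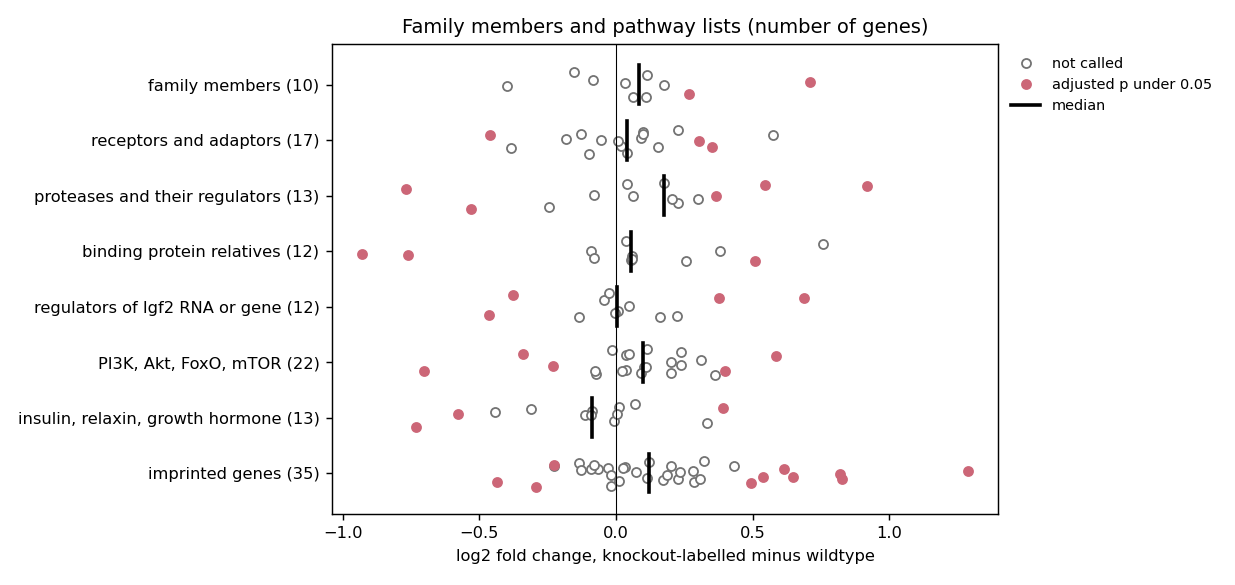
Log2 fold change, knockout-labelled minus wildtype, of each gene at its brightest probe set, for the 10 members and the 7 pathway lists, with the number of genes in brackets; filled red points have an adjusted p under 0.05, open points do not, and black bars are medians. List medians lie between -0.09 and 0.17, and called genes lie on both sides of 0 in every pathway list, while both called members lie to the right.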

How the data were processed

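Expression was measured on 8 arrays. The authors deposited log2 values, 1 for each probe set. Per the submitters' processing notes they came from RMA. RMA corrects background, equalises array distributions and summarises the probes of a set. No source used here names its software or version. No detection calls were at hand, sequencing depth does not apply to arrays, and the number of arrays limits precision.

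Of 45101 probe sets, 64 controls were left out. The platform annotation gave 34945 probe sets 1 gene, 932 several and 9160 none. Gene identifiers and promoters came from RefSeq GRCm38.p6; all 10 members matched. All 45037 probe sets were fitted by the functions lmFit and eBayes of limma 3.58.1, under R 4.3.3, with genotype as the only term, two-sided tests and no filter. On simulated data with 200 changed probe sets of 45037, it recovered 93% of changes of 1 log2 unit and 50% of changes of 0.5. In that simulation 9 unchanged probe sets were called. The comparison itself called 5735 probe sets, many more than were changed there. The adjustment depends on that number, so these shares do not give the recovery in the real data. P-values measure the spread between biological replicates as labelled.

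Replicate numbers are shared between groups. Each array was set relative to its group mean, and over 18193 genes the correlation between same-numbered arrays was 0.131, 0.232, 0.160 and 0.223. All exceed 0.1, the limit set for this check, but the largest correlation of all, 0.294, belonged to differently numbered arrays. Whether the numbers pair the arrays is thus not settled. The main fit leaves the numbers out, and the replicate block is given as an alternative. The choice matters for Igfbp6, at a limma adjusted p of 0.0510 without the block and 0.0291 with it. Differently numbered arrays ranged from -0.296 to 0.294, and 2 of these pairs (wildtype 4 with knockout-labelled 3, wildtype 1 with knockout-labelled 4, at 0.171) exceeded 0.1 too. The case for pairing rests on the values, since no label ties a number to a litter.

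The members, lists and tests were chosen with earlier results of these data known. Named genes were the members, Otx2, up to 3 called genes per direction with the smallest p from each pathway list, up to 2 called genes from each marker list, and the 5 genes nearest to Igf2 and to the member with the largest change. Marker lists were described by counts. Of 137 pathway entries, 15 are not analysed here. Alternatives were the replicate block, array weights, a trended robust prior, other choices of probe sets, a filter on dim probe sets, other scalings, thresholds, a test without a shared variance and leaving out each array.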

Additional observations from a re-analysis of the deposited data

Results flagged for a closer look

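In 3 of the groups of 4 arrays checked, over 71 probe sets of the members and named genes, 1 array stood far from the other 3, measured as its gap to the nearest array over the whole range. Chance flags about 1 group in 20, and 142 groups were checked, so 3 is fewer than that rate alone would give. For Igfbp4 it was wildtype replicate 2 on the second brightest probe set, at 11.68 against 11.40 to 11.44 in the others, a share of 0.869. For Ins2 it was knockout-labelled replicate 4, at 8.26 against 8.17 in the others, a share of 0.955. For the endothelial sialomucin Emcn it was wildtype replicate 4, at 10.04 against 9.92 to 9.94, a share of 0.836.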

How the results depend on the processing

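Over the alternatives the members kept their side of the threshold in 182 of 199 values, and no call was made in the opposite direction. With the replicate block, array weights, the trended robust prior, only the brightest probe set per gene, the mean of probe sets, median centring or renewed quantile normalization, 1 member was called lower, Igfbp6, and 1 member probe set where probe sets were counted. The members called higher were 1 with median centring, Welch's test, a threshold of 0.01 or a minimum of 1.5-fold. Member probe sets called higher were 2 with Welch's test and 1 with each stricter threshold. Of the pathway genes, 7 rose and 7 fell with Welch's test, 7 fell at 0.01, and 8 rose and 5 fell at 1.5-fold. Over all probe sets, 2373 rose and 3362 fell, against 770 and 1909 with Welch's test, 854 and 1942 at 0.01, 809 and 1289 at 1.5-fold, and 3977 higher with array weights. Without 1 array each, the counts ranged from 1346 to 3971 higher and 2479 to 3554 lower over all probe sets, 15 to 26 and 8 to 13 for pathway genes, 1 to 2 and 0 to 1 for members, and 3 to 5 and 0 to 1 for member probe sets, where the lower call was Igfbp6 without wildtype replicate 1 and Igfbp7 without knockout-labelled replicate 3. The highest count over all probe sets came without knockout-labelled replicate 2. The replicate block changed no member's call but that of Igfbp6. The cause of these shifts was not tested. The filter on dim probe sets left no value for Igfbp6, Lin28a, Rxfp2 and Peg10.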
